A study of Homo sapiens with 8 samples.

Results

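A set of 9 genes that had been reported as targets of miR-210-3p, and whose products act outside the respiratory chain, was followed in oral squamous carcinoma cells transfected with miRNA mimics. The genes were ISCU, FGFRL1, GPD1L, EFNA3, PTPN1, E2F3, MNT, ACVR1B and P4HB, taken by gene name from the annotation of the array. All 9 passed the filter on dim signals, among 21283 genes that passed it and 43317 gene names on the array. They were measured by 12 probes in all, since E2F3, MNT and P4HB had 2 each and the other genes had 1 each.

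The cells were SAS, a long-established line of human tongue squamous carcinoma, named SAS/GFP in the paper for its vector. They received 25 nM of a synthetic mimic, which copied miR-210-3p, miR-874-3p or else miR-629-3p, or the same dose of a negative control RNA (NC). By the methods, the mimics and the NC RNA came from different suppliers. RNA was extracted at 48 h with QIAzol and miRNeasy by the sample labels. A shorter interval and another kit are stated in the methods. There were 2 arrays in each of 4 groups, and nothing stated that the replicates came from separate cultures, so p-values measure only the spread between these samples, which may be technical. A mimic raises a miRNA to levels set by the transfection, and the level of the mature miRNA in these cells was not measured on these arrays.

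From each sample, 100 ng of RNA was labelled with 1 dye for a SurePrint G3 Human GE v3 array of Agilent, which reads transcripts and not proteins. All 8 arrays lay on 1 slide. Row 1 of the slide held miR-210-3p and miR-629-3p, and row 2 held NC and miR-874-3p. In the comparisons of miR-210-3p with NC and with miR-874-3p the slide row and the miRNA therefore cannot be told apart. NC and miR-629-3p arrays also lay on different rows, so their differences have the same limit. The comparison of miR-210-3p with miR-629-3p lay within row 1 and that of miR-874-3p with NC within row 2. Between 41.8% and 49.8% of the 58201 gene probes were well above background, more on the row 1 arrays (46.5% to 49.8%) than on the row 2 arrays (41.8% to 46.3%), and no spot was saturated. The 12 squamous epithelium markers examined, among them the keratins KRT5 and KRT14 and the p53 relative TP63, were well above background on all 8 arrays. Of the markers of other cell types, 2 to 3 of 4 leukocyte, 2 to 3 of 3 endothelial and 2 to 3 of 5 fibroblast and muscle markers were detected on an array, while COL1A2 and DCN were among those detected on none.

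A miRNA guides the Argonaute proteins to messenger RNAs that pair with it, mostly through its seed near the 5′ end, and the paired transcripts are translated less and degraded. miR-210-3p is known as a miRNA that hypoxia-inducible factors raise in many cell types, and the targets reported for it include subunits and assembly factors of mitochondrial complexes, signalling proteins and cell cycle regulators. Transcript arrays record the part of this repression that lowers RNA. The sequences of the 3 mature miRNAs, taken from RefSeq (GRCh38.p14), are shown because the comparisons set these mimics against each other, with their seeds, bases 2 to 8, in capitals.
miR-210-3p: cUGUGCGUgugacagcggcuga
miR-629-3p: gUUCUCCCaacguaagcccagc
miR-874-3p: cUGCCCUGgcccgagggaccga
The seeds of the 3 mimics were different from each other. The miR-210-3p sequence lies on the minus strand at chr11:568112-568133, the miR-629-3p sequence on the minus strand at chr15:70079387-70079408 and that of miR-874-3p on the minus strand at chr5:137647582-137647603.

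In miR-210-3p-transfected cells, 3 of the 9 genes were downregulated relative to NC, 1 was upregulated and 5 were not called. ISCU, the scaffold on which iron-sulfur clusters are built in mitochondria, fell 2.24-fold. FGFRL1, a member of the FGF receptor family that lacks the tyrosine kinase domain, fell 2.83-fold, and GPD1L, a relative of glycerol 3-phosphate dehydrogenase, fell 1.98-fold. PTPN1, the tyrosine phosphatase PTP1B that acts on the insulin receptor, rose 1.44-fold. The calls were made with limma at an adjusted p under 0.05, after Benjamini-Hochberg adjustment over all tested genes. By the same rule 2.2% of all tested genes were lower and 3.85% were higher with miR-210-3p than with NC. The median log2 fold change of the 9 genes was -0.18, and that of all tested genes was 0.05. At the threshold that the paper used for its arrays, an unadjusted p under 0.05 and a change of at least 2-fold, ISCU and FGFRL1 were lower, GPD1L fell just short of 2-fold and none was higher, beside 1.15% of all genes lower and 1.99% higher.

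**Figure D1:**
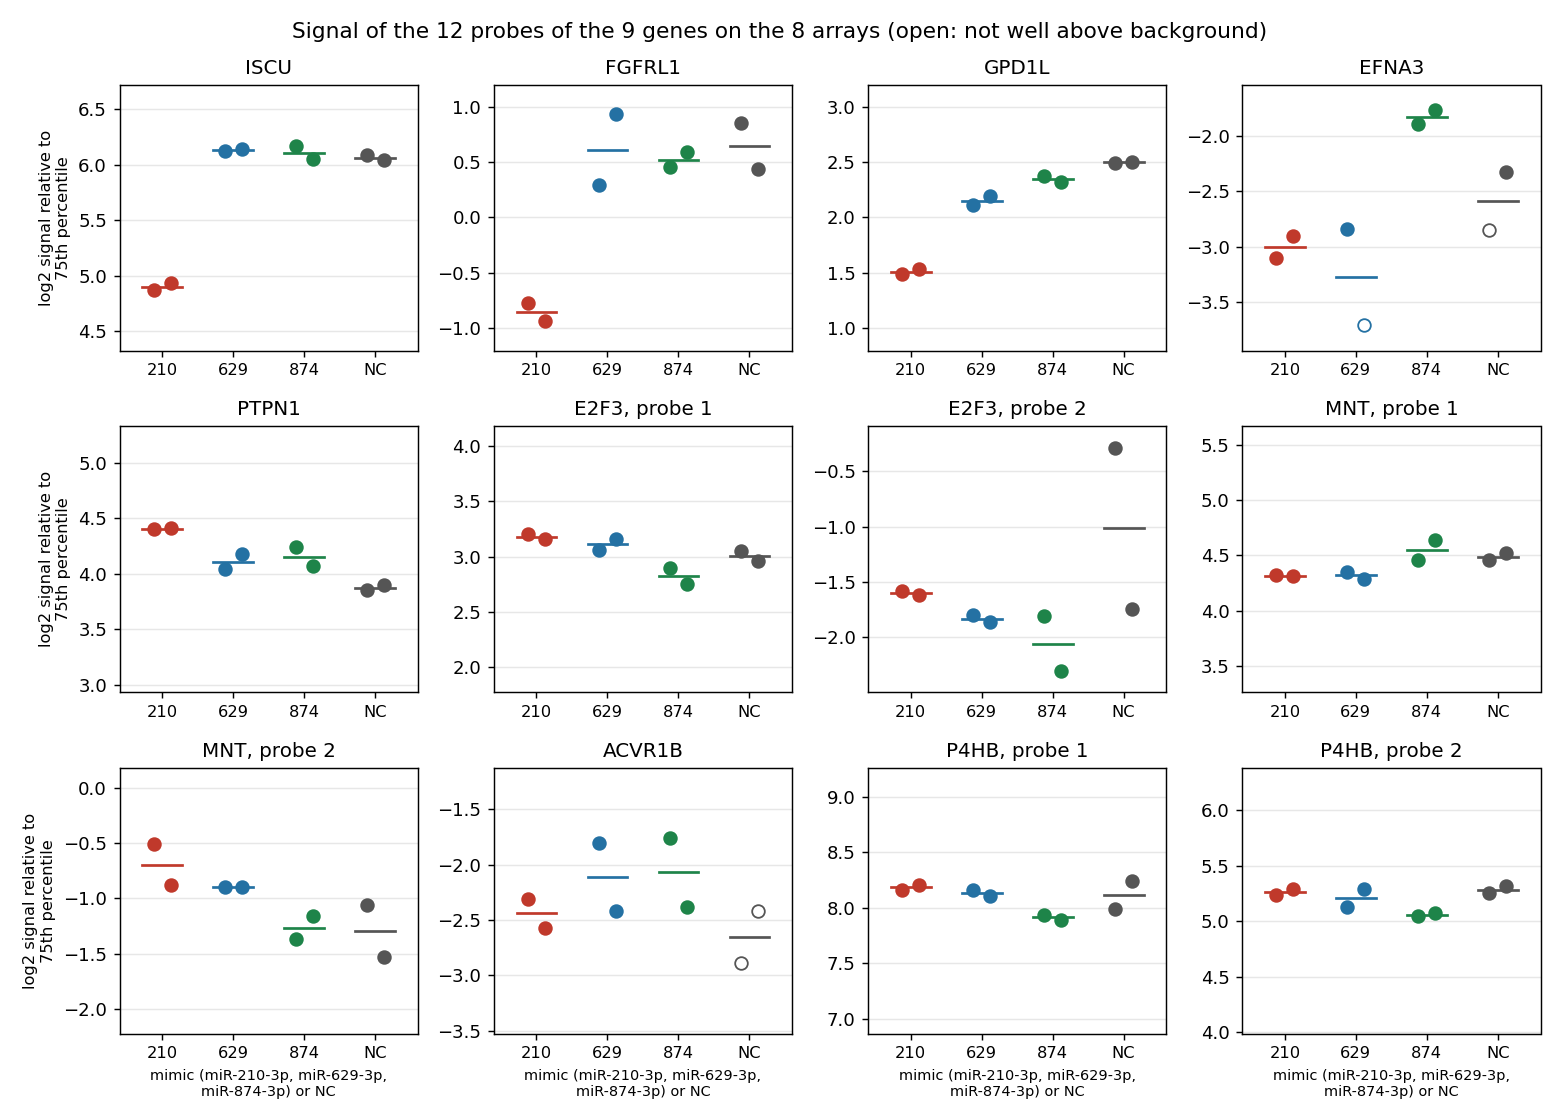
Each panel shows 1 of the 12 probes of the 9 genes. The y axis is the log2 signal relative to the 75th percentile of the array, the points are the 8 arrays by group, the bars are group means, and open points were not well above background. The y ranges differ between panels. The miR-210-3p points of ISCU, FGFRL1 and GPD1L lie below those of the other 3 groups, and those of PTPN1 lie above. By narrow margins, those of the dimmer MNT probe and the brighter E2F3 probe also lie above, though neither probe was called against NC.

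The downregulated genes are described first. All levels are log2 signals relative to the 75th percentile of each array, so a value above 0 is brighter than that percentile, and levels of different probes cannot be set against each other because probes differ in how well they bind. An array signal is a share of the RNA pooled from all cells of a sample, so fewer cells that express a gene and less RNA per cell cannot be told apart. Probe coordinates are those of the array annotation on hg19, and whether a probe lies in a coding exon or a UTR was not analysed here.

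ISCU was read by 1 probe on the plus strand at chr12:108963027-108963086. Its log2 signals were 4.87 and 4.93 with miR-210-3p, 6.12 and 6.14 with miR-629-3p, 6.17 and 6.05 with miR-874-3p, and 6.09 and 6.04 with NC. The 2 miR-210-3p arrays stood well below the other 6, which lay within a narrow band. The log2 fold change with miR-210-3p against NC was -1.17 (SE 0.07, 95% confidence interval -1.35 to -0.98, limma adjusted p = 0.00573). Against miR-629-3p, on the same slide row, it was -1.23 (SE 0.07, adjusted p = 0.00184), and against miR-874-3p it was -1.21 (SE 0.07, adjusted p = 0.00392). With miR-629-3p and miR-874-3p ISCU was not called against NC, with log2 fold changes of 0.06 (95% confidence interval -0.12 to 0.25) and 0.04 (-0.14 to 0.23). ISCU was therefore lower with miR-210-3p than in each of the other groups, by nearly the same amount. Of all tested genes, 1.32% had a lower log2 fold change than ISCU with miR-210-3p against NC.

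FGFRL1 was read by 1 probe on the plus strand at chr4:1019939-1019998. Its log2 signals were -0.77 and -0.94 with miR-210-3p, 0.29 and 0.93 with miR-629-3p, 0.45 and 0.59 with miR-874-3p, and 0.85 and 0.44 with NC. Both miR-210-3p arrays lay below the 75th percentile and all others above it, and the replicates of miR-629-3p and NC were spread more widely than those of ISCU. Its log2 fold change against NC was -1.50 (SE 0.24, 95% confidence interval -2.10 to -0.90, limma adjusted p = 0.0319). It was -1.47 against miR-629-3p (SE 0.24, adjusted p = 0.0138) and -1.38 against miR-874-3p (SE 0.24, adjusted p = 0.0298). Neither other mimic was called against NC, at -0.03 (-0.64 to 0.57) with miR-629-3p and -0.12 (-0.73 to 0.48) with miR-874-3p. The call against NC was lost without either miR-210-3p array (adjusted p = 0.101 and 0.128), without NC replicate 1 (0.089) and without miR-629-3p replicate 2 (0.0538), at log2 fold changes of -1.59, -1.41, -1.30 and -1.50, all by limma. The call against miR-629-3p was lost without either miR-210-3p array (adjusted p = 0.0607 and 0.0768). The call against miR-874-3p was lost without any 1 array of the miR-210-3p, NC or miR-874-3p groups (adjusted p = 0.0509 to 0.128). With normexp background correction, which adds an offset to every signal, the log2 fold change against NC was smaller, at -0.87, and still called (adjusted p = 0.0155).

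GPD1L was read by 1 probe on the plus strand at chr3:32209871-32209930. Its log2 signals were 1.49 and 1.53 with miR-210-3p, 2.11 and 2.19 with miR-629-3p, 2.37 and 2.32 with miR-874-3p, and 2.49 and 2.50 with NC. The miR-210-3p arrays were lowest, the miR-629-3p arrays came next, and the miR-874-3p arrays lay just below NC, with no overlap between any groups. With miR-210-3p, GPD1L changed by -0.98 against NC (SE 0.07, 95% confidence interval -1.16 to -0.81, limma adjusted p = 0.00635), -0.64 against miR-629-3p (SE 0.07, adjusted p = 0.00541) and -0.83 against miR-874-3p (SE 0.07, adjusted p = 0.00568). In the main fit, GPD1L was also the only one of the 9 genes called with another mimic against NC. GPD1L was lower in miR-629-3p-transfected cells than in NC cells, on the other slide row, at -0.35 (SE 0.07, 95% confidence interval -0.52 to -0.17, limma adjusted p = 0.0274). That call was lost without either miR-629-3p array, either miR-210-3p array or either NC array (adjusted p = 0.0684 to 0.142), with the log2 fold change between -0.39 and -0.30. With miR-874-3p the value was -0.15 (-0.32 to 0.02, adjusted p = 0.354).

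PTPN1 was read by 1 probe on the plus strand at chr20:49200887-49200946. Its log2 signals were 4.40 and 4.41 with miR-210-3p, 4.04 and 4.18 with miR-629-3p, 4.24 and 4.07 with miR-874-3p, and 3.85 and 3.90 with NC. The miR-210-3p arrays were the highest and the NC arrays the lowest, with the other mimics between them. The log2 fold change with miR-210-3p against NC was 0.53 (SE 0.09, 95% confidence interval 0.30 to 0.75, limma adjusted p = 0.0375). The difference from NC was 0.23 with miR-629-3p (0.01 to 0.46, adjusted p = 0.141) and 0.28 with miR-874-3p (0.05 to 0.51, adjusted p = 0.235), and neither was called. With normexp, PTPN1 was called higher with miR-629-3p than with NC (0.29, limma adjusted p = 0.0377). With miR-210-3p, PTPN1 also was not called against miR-629-3p, at 0.29 (adjusted p = 0.0753), or against miR-874-3p, at 0.25 (adjusted p = 0.152). Against miR-629-3p it was called only with a trend in the limma prior (0.29, adjusted p = 0.0272). In the main fit the rise was thus called against NC alone. That call was lost without any 1 array of the miR-210-3p, NC or miR-629-3p groups (adjusted p = 0.083 to 0.148), while the log2 fold change stayed between 0.50 and 0.55.

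The 5 other genes were not called with miR-210-3p against NC. EFNA3, a membrane-anchored ephrin ligand of Eph receptors, was read by 1 probe on the plus strand whose 60 bases span 267 bases of the genome, at chr1:155058670-155058936. It was dim, and was well above background on 6 of the 8 arrays. Its log2 signals were -3.10 and -2.90 with miR-210-3p, -2.84 and -3.71 with miR-629-3p, -1.89 and -1.77 with miR-874-3p, and -2.85 and -2.33 with NC. The miR-629-3p replicate 2 and NC replicate 1 signals were not well above background. The miR-874-3p arrays were the highest, and the miR-210-3p arrays lay below both NC arrays by a narrow margin and within the range of the miR-629-3p arrays. With miR-210-3p, EFNA3 changed by -0.41 against NC (SE 0.31, 95% confidence interval -1.19 to 0.37, limma adjusted p = 0.459) and -1.17 against miR-874-3p (SE 0.31, adjusted p = 0.0761). Against NC, the difference was -0.68 with miR-629-3p (-1.46 to 0.10, adjusted p = 0.192) and 0.76 with miR-874-3p (-0.02 to 1.54, adjusted p = 0.316). The interval of miR-210-3p against NC holds a fall of more than 2-fold as well as no change.

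ACVR1B, the activin type I receptor ALK4, was read by 1 probe on the plus strand at chr12:52380666-52380725. Its log2 signals were -2.31 and -2.57 with miR-210-3p, -1.80 and -2.42 with miR-629-3p, -1.76 and -2.38 with miR-874-3p, and -2.89 and -2.42 with NC. Neither NC array was well above background, so the NC level is only a bound. The bound of an NC array was the higher of the dimmest signal detected on it and the signal of the ACVR1B probe itself, which gave a mean of -2.63. Set against this bound, the mean was at least 1.43-fold higher with miR-629-3p and at least 1.47-fold higher with miR-874-3p. With miR-210-3p it was at least 1.14-fold higher by the same reckoning. The miR-210-3p and miR-629-3p arrays overlapped those of NC, and the lower miR-874-3p array lay just above the higher NC array. Without NC replicate 1 the log2 difference of miR-210-3p from NC was -0.02. The limma confidence intervals of the log2 differences from NC all held no change. They were -0.56 to 0.99 with miR-210-3p, -0.23 to 1.31 with miR-629-3p and -0.19 to 1.36 with miR-874-3p. The fold values therefore describe the means of these arrays and give no minimum rise. None of the 3 differences was called (limma adjusted p = 0.709 with miR-210-3p, 0.282 with miR-629-3p and 0.414 with miR-874-3p).

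E2F3, a transcription factor of the cell cycle, was read by a brighter and a dimmer probe on the plus strand, at chr6:20493845-20493904 and chr6:20490602-20490661. The brighter probe gave log2 signals of 3.20 and 3.16 with miR-210-3p, 3.06 and 3.16 with miR-629-3p, 2.90 and 2.75 with miR-874-3p, and 3.05 and 2.96 with NC. Its log2 fold change with miR-210-3p was 0.18 against NC (95% confidence interval -0.03 to 0.39, limma adjusted p = 0.26) and 0.36 against miR-874-3p (adjusted p = 0.0577). The miR-874-3p arrays were the lowest of the 4 groups. The difference from miR-874-3p stayed uncalled in 15 of 22 settings. It was called without miR-874-3p replicate 1 (0.44, adjusted p = 0.0414), with normexp (0.29, 0.0398), in the authors' deposited values (0.39, 0.0461), with outlier spots kept (0.39, 0.0472), with detection required on all 8 arrays (0.36, 0.0359), with a trend in the limma prior (0.36, 0.0188) and by the unadjusted p of the methods' t-test. The dimmer probe gave -1.58 and -1.62 with miR-210-3p, -1.80 and -1.86 with miR-629-3p, -1.81 and -2.30 with miR-874-3p, and -0.29 and -1.74 with NC. Here the NC replicates disagreed by more than any difference between groups in the brighter probe. Its log2 fold change against NC was -0.58 (SE 0.46, 95% confidence interval -1.72 to 0.55, limma adjusted p = 0.474), opposite in sign to the brighter probe.

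MNT, a repressor that competes with MYC for MAX, was read by a brighter and a dimmer probe on the minus strand, at chr17:2287576-2287635 and chr17:2289632-2289691. The brighter probe gave log2 signals of 4.32 and 4.31 with miR-210-3p, 4.35 and 4.29 with miR-629-3p, 4.46 and 4.64 with miR-874-3p, and 4.46 and 4.52 with NC. The miR-210-3p and miR-629-3p arrays were together and slightly below the other 4. The log2 fold change with miR-210-3p against NC was -0.18 (SE 0.08, 95% confidence interval -0.38 to 0.03, limma adjusted p = 0.255). The dimmer probe gave -0.51 and -0.88 with miR-210-3p, -0.90 and -0.90 with miR-629-3p, and -1.37 and -1.16 with miR-874-3p, where the NC values were -1.06 and -1.53. Its miR-210-3p arrays lay above those of NC. Its log2 fold change was 0.61 (SE 0.20, 95% confidence interval 0.12 to 1.1, limma adjusted p = 0.13 over all probes), so the probes of MNT disagreed in sign and neither was called. Against miR-874-3p the brighter probe was at -0.24 (adjusted p = 0.136), which passed the threshold only with normexp (-0.25, adjusted p = 0.0325).

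P4HB, protein disulfide isomerase and the beta subunit of collagen prolyl 4-hydroxylase, was read by probes on the minus strand at chr17:79801052-79801111 and chr17:79801587-79801646. The brighter probe gave log2 signals of 8.16 and 8.21 with miR-210-3p, 8.16 and 8.11 with miR-629-3p, 7.94 and 7.89 with miR-874-3p, and 7.99 and 8.24 with NC. The other probe gave 5.24 and 5.29 with miR-210-3p, 5.13 and 5.29 with miR-629-3p, 5.05 and 5.07 with miR-874-3p, and 5.25 and 5.32 with NC. The miR-210-3p arrays lay within the range of NC by the brighter probe and overlapped it by the other. The log2 fold change with miR-210-3p against NC was 0.07 by the brighter probe (95% confidence interval -0.17 to 0.32, limma adjusted p = 0.694) and -0.02 by the other (-0.23 to 0.19, adjusted p = 0.899). Both intervals exclude a change of 2-fold. The miR-874-3p arrays were the lowest by both probes, at -0.20 and -0.22 against NC (limma adjusted p = 0.383 and 0.289).

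**Figure D2:**
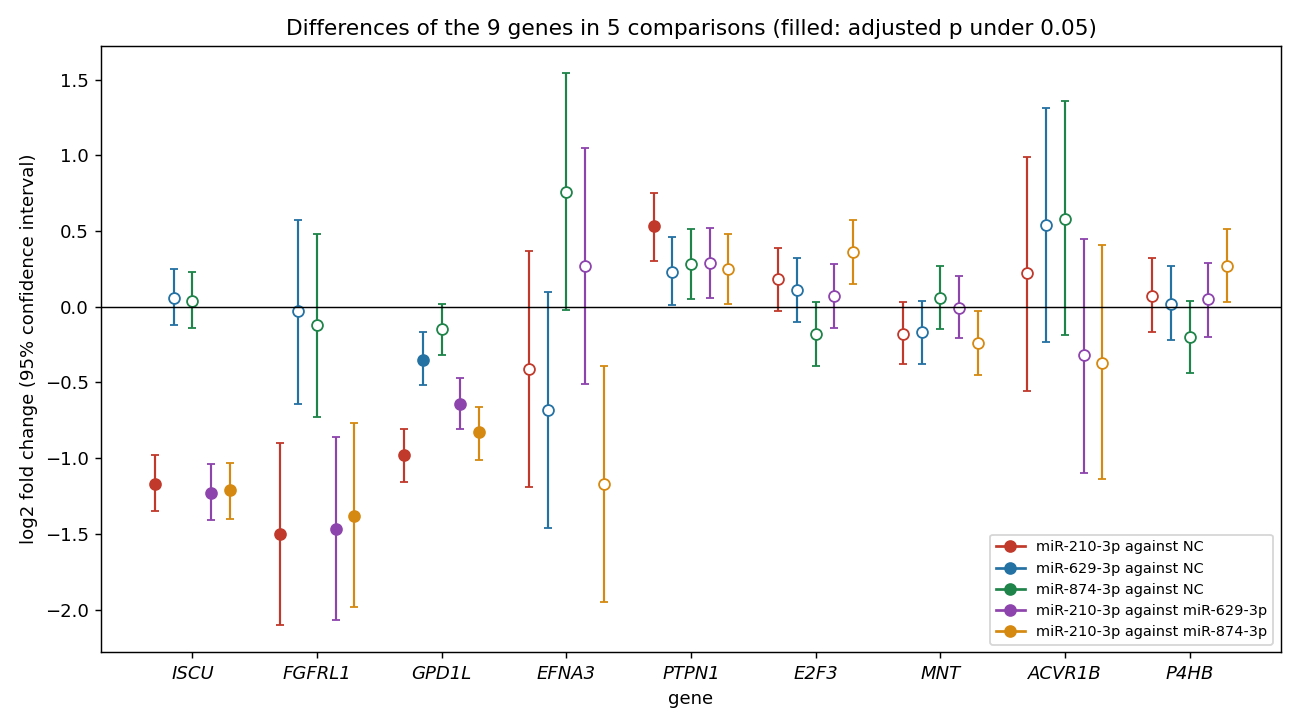
The y axis is the log2 fold change of each of the 9 genes, by its brightest probe, in 5 comparisons. Points are limma estimates with 95% confidence intervals, filled where the adjusted p is under 0.05. ISCU, FGFRL1 and GPD1L are filled below 0 in all 3 comparisons of miR-210-3p, whereas PTPN1 is filled against NC alone.

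Counted over the 5 comparisons, the 3 comparisons that involve miR-210-3p each called ISCU, FGFRL1 and GPD1L lower. Those against the other mimics called no gene of the 9 higher. Of all tested genes, 9.83% were lower and 12.7% higher with miR-210-3p than with miR-629-3p, and 3.47% were lower and 6.33% higher than with miR-874-3p. The medians of the 9 genes were -0.01 and -0.37 in these 2 comparisons, beside 0.02 and 0.05 for all genes. The 3 comparisons share the miR-210-3p arrays, so they are not independent of each other. With miR-629-3p against NC, 1 of the 9 genes was lower and none higher, beside 7.47% of all genes lower and 9.28% higher. With miR-874-3p against NC, limma called none of the 9, beside 0.207% of all genes lower and 0.216% higher. At an unadjusted p under 0.05 limma called PTPN1 only (unadjusted p = 0.0254), beside 3486 of all 21283 tested genes. The methods' t-test at an unadjusted p under 0.05 called GPD1L instead. Against NC, the 9 genes had medians of 0.02 with miR-629-3p and 0.04 with miR-874-3p, where those of all tested genes were 0.02 and -0.01.

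When each probe was tested as its own feature, 4 of the 12 probes were called with miR-210-3p against NC. They were the ISCU, FGFRL1 and GPD1L probes, which were lower, and the PTPN1 probe, which was higher. Of all 27303 probes tested, 1.92% were lower and 3.72% higher. None of the second probes of E2F3, MNT and P4HB was called.

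**Figure D3:**
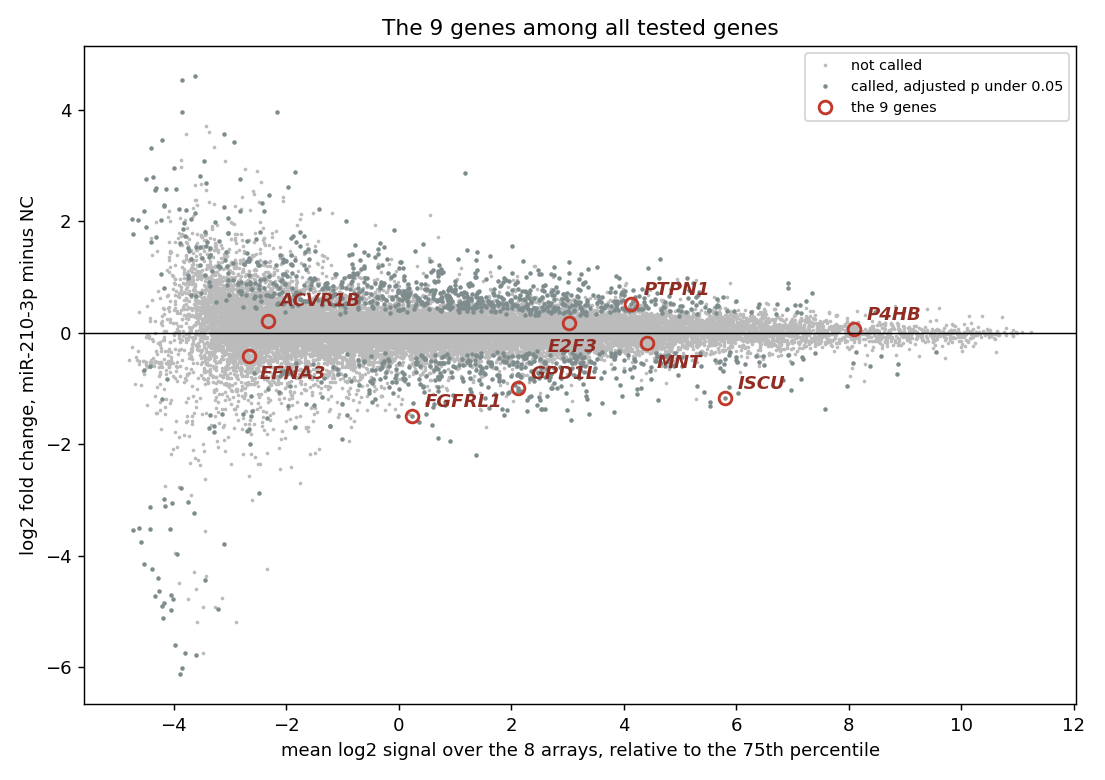
The x axis is the mean log2 signal of each tested gene over the 8 arrays, relative to the 75th percentile, and the y axis is the log2 fold change of miR-210-3p against NC. Dark points were called at an adjusted p under 0.05, and red circles are the 9 genes. The spread of all genes widens toward dim signals, where EFNA3 and ACVR1B lie, and ISCU, GPD1L and FGFRL1 lie on its lower edge.

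The precision differed among the 9 genes. The standard error of the log2 fold change with miR-210-3p against NC was 0.07 for ISCU and GPD1L, 0.31 for EFNA3 and ACVR1B, and 0.46 for the dimmer probe of E2F3. Differences of EFNA3 and ACVR1B were therefore measured less precisely than those of ISCU and GPD1L.

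The sequence of each probe was searched for the reverse complement of the miR-210-3p seed in DNA letters, ACGCACA, on the probe strand, which is the strand of the transcript. It was found in 0.131% of the 58201 probes (76 probes) and in none of the 12 probes of the 9 genes, and the complements of the other seeds, GGGAGAA for miR-629-3p and CAGGGCA for miR-874-3p, were in none of the 12 either. The absence says only that these letters are not in these 60-base windows. Of the 43 tested probes that hold ACGCACA, limma called 5 lower and 0 higher with miR-210-3p. Of all tested probes, 1.92% were lower and 3.72% higher. The 43 probes had a median log2 fold change of -0.08, beside 0.06 for all probes. With miR-629-3p and miR-874-3p their medians were 0.03 and 0.10, beside 0.03 and 0.00. The windows below, from 3 of the 5 lower probes, are examples of the letters that pair with the miR-210-3p seed, in capitals. One of them is from DIMT1, a ribosomal RNA methyltransferase that is itself a reported miR-210-3p target.
DIMT1: caggagccgcagagACGCACAactttaca
WLS: gattgtacttgtatACGCACAcaaataca
MARVELD3: atgtgaACGCACAttgtttct
The probes lie at chr5:61684548-61684607 for DIMT1, chr1:68564208-68564267 for WLS and chr16:71674948-71675007 for MARVELD3 on hg19. Their log2 fold changes with miR-210-3p against NC were -1.21, -1.17 and -0.59 (limma adjusted p = 0.013, 0.00626 and 0.044 over all probes). The fall of the DIMT1 and WLS probes was close in size to that of ISCU.

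Genes related to the 9 by function or by report were counted from 10 lists, of which 138 of 159 genes were tested. In all, 11 were lower and 8 higher with miR-210-3p than with NC. By the same rule 2.2% of all tested genes were lower and 3.85% higher, and these shares stand beside each list below. They are given for the main fit only, so under the alternatives a change of the lists cannot be told from a change of the whole array. With normexp background correction the split was 16 lower and 19 higher, and with detection required on all 8 arrays it was 13 and 16. The 19 calls together became 4 to 30 when 1 array was left out, fewest without miR-629-3p replicate 2 and most without either miR-874-3p array, an alternative chosen after seeing the data. Of the other reported targets of miR-210-3p, 3 of 16 tested were lower and none was higher. NDUFA4, a cytochrome oxidase subunit, changed by -1.38 (SE 0.08, limma adjusted p = 0.0045), DIMT1 by -1.21 (SE 0.12, adjusted p = 0.0117) and SDHD, a subunit of succinate dehydrogenase, by -0.66 (SE 0.07, adjusted p = 0.0122). The median of this list was -0.06, and AIFM3, RUNX3 and LDOC1 were among its genes that did not pass the filter on dim signals. As with the 9 genes, most of the reported targets were not called.

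Around ISCU, 2 of 23 tested genes of iron-sulfur cluster assembly were lower and 1 was higher, with a median of 0.05, the same as for all genes. Ferredoxin reductase, FDXR, changed by -0.59 (limma adjusted p = 0.0314), the late-acting factor IBA57 by -0.59 (adjusted p = 0.0397) and the ferredoxin FDX1 by 0.71 (adjusted p = 0.0416). Relative to NC, FDXR and IBA57 were also lower with miR-629-3p, at -0.72 and -0.43 (adjusted p = 0.0109 and 0.0461). Both mimics lay on the same slide row and NC on the other. A change from NC that both mimics share, here and below, therefore cannot be told apart from the row. Around GPD1L, none of the 10 tested genes of glycerol 3-phosphate metabolism was called by limma with miR-210-3p against NC. At an unadjusted p under 0.05, 3 of them passed in that comparison, beside 5525 of all 21283 tested genes. The GPD1L relatives GPD1 and GPD2 were there at 0.05 and -0.29 (limma adjusted p = 0.892 and 0.115). With miR-629-3p against NC, limma called genes of this list in both directions.

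Around FGFRL1, 1 of 12 tested FGF receptors and signalling adaptors was lower and 2 were higher, with a median of 0.40. The median covers receptors, adaptors and feedback inhibitors together, and the receptors alone had values of both signs. The receptor FGFR2 changed by -0.62 (limma adjusted p = 0.0398), and the feedback inhibitors of ERK signalling DUSP6 and SPRY2 by 0.77 and 0.53 (adjusted p = 0.0117 and 0.0371). DUSP6 and SPRY2 were also higher with miR-629-3p than with NC, at 0.37 and 1.01 (adjusted p = 0.0312 and 0.00547). Around PTPN1, 2 of 12 tested non-receptor tyrosine phosphatases were higher, PTPN12 at 0.53 and PTPN14 at 0.43 (limma adjusted p = 0.0316 and 0.0424), and none was lower. With miR-629-3p, PTPN14 was higher by 0.79 (adjusted p = 0.00624), more than with miR-210-3p, and PTPN12 was not called (0.12, adjusted p = 0.383). The size of the PTPN12 change with miR-210-3p was that of PTPN1.

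Around EFNA3, 3 of 14 tested ephrins and Eph receptors were lower and none was higher, namely the ligands EFNA1 at -0.78 and EFNB1 at -0.55 (limma adjusted p = 0.0093 and 0.0413) and the receptor EPHB2 at -0.51 (adjusted p = 0.0493). Relative to NC, all 3 were also lower with miR-629-3p, at -0.86, -0.64 and -0.47 (adjusted p = 0.00368, 0.0158 and 0.0342). Around ACVR1B, the activin receptor ACVR2B was higher at 1.22 (SE 0.07, limma adjusted p = 0.00573) and the activin antagonist FST lower at -0.40 (adjusted p = 0.0393), of 14 tested genes, whereas FST was higher with miR-629-3p than with NC, at 0.49 (adjusted p = 0.0139). Among 11 genes of the E2F and RB families, E2F1 and TFDP2 were higher, at 0.42 and 0.43 (adjusted p = 0.0451 and 0.039), and with miR-629-3p TFDP2 was lower than in NC cells, at -0.37 (adjusted p = 0.0304). Among 11 of the MYC and MAX network, MLXIP was lower at -0.50 (adjusted p = 0.0267). None of 15 tested disulfide isomerases and prolyl hydroxylases around P4HB was called by limma with miR-210-3p against NC. In that comparison an unadjusted p under 0.05 was passed by 4 of them, beside 5525 of all 21283 tested genes. Several of these genes were called lower, and none higher, with miR-629-3p than with NC.

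**Figure D4:**
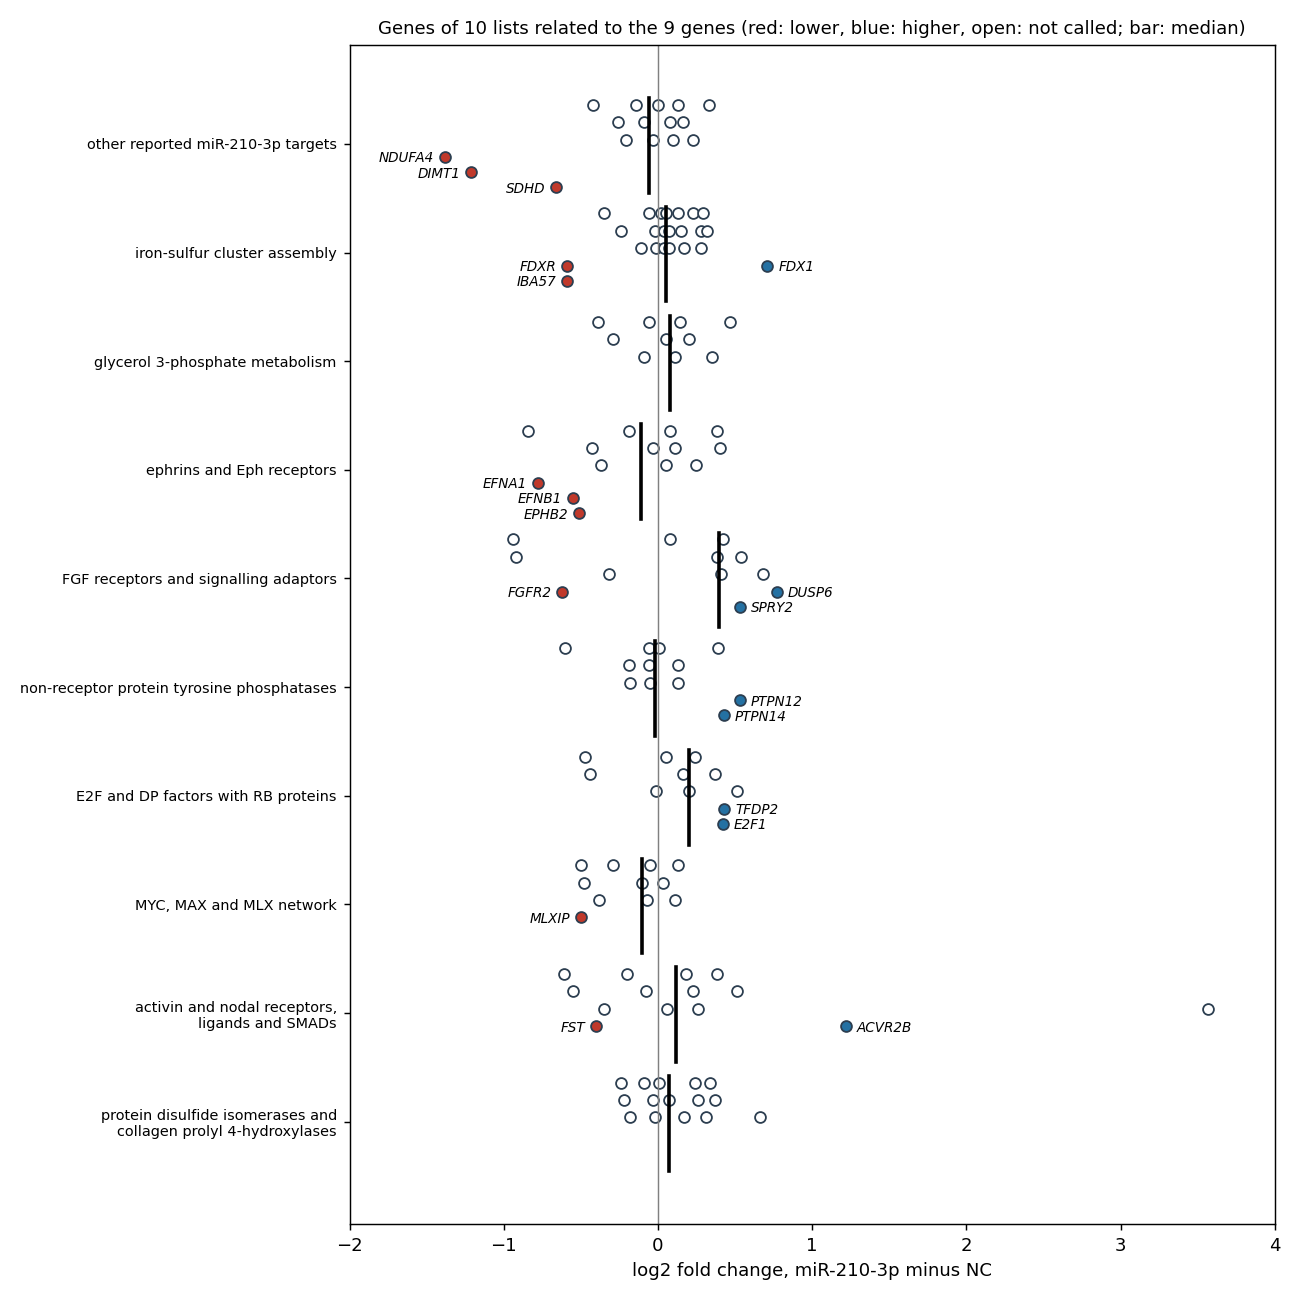
Each point is a tested gene of 1 of 10 lists, with its log2 fold change of miR-210-3p against NC on the x axis. Red points were lower and blue points higher at an adjusted p under 0.05, open points were not called, and bars are list medians. NDUFA4 and DIMT1 lie farthest to the left among the red points, and ACVR2B farthest to the right among the blue.

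With miR-210-3p against NC, 2.2% of all tested genes were lower and 3.85% higher. Of the 12 squamous epithelium markers, 4 were lower with miR-210-3p than with NC and 8 were not called. The lower ones were KRT5, KRT14, KRT17 and SFN, at -1.25, -1.11, -1.01 and -0.96 (limma adjusted p = 0.0268, 0.018, 0.0169 and 0.0128). EPCAM and CDH1 had values of the other sign, at 0.39 and 0.17 (adjusted p = 0.052 and 0.417). Relative to NC, KRT14 and KRT17 were also lower with miR-629-3p, at -0.66 and -0.68 (adjusted p = 0.032 and 0.0215). Of 3 tested fibroblast and muscle markers, the smooth muscle actin gene ACTA2 was lower with miR-210-3p at -0.56 (limma adjusted p = 0.0137) and with miR-629-3p at -0.52 (adjusted p = 0.00872). COL1A1 was not called, with log2 signals of -0.55 ± 1.52 (SD, n = 2) with miR-210-3p and -3.45 ± 0.11 with NC (limma unadjusted p = 0.00474, adjusted p = 0.0606), and DES was at -0.05 (adjusted p = 0.755). No leukocyte or endothelial marker was called by limma with miR-210-3p against NC. Of the 5 tested, 1 passed an unadjusted p under 0.05 in that comparison, beside 5525 of all 21283 tested genes. Limma did call endothelial markers in comparisons that involve miR-629-3p. The part of these differences in the results for the 9 genes was not tested.

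The genes whose signal followed that of the most reduced genes most closely over the 8 arrays were listed as a description. For FGFRL1 they were NBEAL2 (Pearson r = 0.9818), KIAA0930 (0.9798) and ATN1 (0.9765), with log2 fold changes with miR-210-3p against NC of -0.34, -1.06 and -1.06, of which the first was not called (limma adjusted p = 0.103). For ISCU they were a probe without a gene symbol at chr19:24229386-24229445 on hg19 (r = 0.9988, log2 fold change -1.13), MID1IP1 (0.9905, -0.51) and HDAC4 (0.9892, -0.77). The 8 arrays share 4 groups and 1 slide, so a pattern of this kind needs only a gap between miR-210-3p and the other groups.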

How the data were processed

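RNA of 8 samples was measured on 1-colour Agilent arrays. The authors' scanner software, Agilent Feature Extraction 11.5.1.1, gave the deposited intensity values, which are processed signals corrected for background with the lowest signals replaced, together with mean and background intensities and flags. They were not normalized between arrays. A second file deposited by the authors holds log2 values whose scale is not stated in the sources used here. Set against the scanner values it held log2 signals less each array's approximate 75th percentile, with a constant offset of -0.004 to 0.049 and residuals of at most 5.02e-05. Array medians in it ran from -3.68 to -3.36, and it served as an alternative.

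Here, the 75th percentile over gene probes was subtracted from the log2 processed signals of an array, after control spots and outlier spots (87 to 346 of 60901 per array) were left out. Tested probes had values on 8 arrays and, in 1 group or more, signals well above background on both. The brightest probe stood for a gene name. The 8 arrays entered 1 fit in limma 3.58.1 (lmFit, eBayes; R 4.3.3) with no covariate (4 residual and 1.68 prior degrees of freedom), with Benjamini-Hochberg adjustment over all genes or probes. The number of arrays limits the precision. The methods name Student's t-test and no test for the array counts. The fit was tested on simulated data.

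The 9 genes and the 10 lists were chosen with earlier results of these data known. The text names each of the 9, up to 2 called genes of a list in each direction, other genes of short lists, and the 3 genes most like each of the 2 with the largest fall. SDHD, EPHB2, WLS, MARVELD3, EPCAM, CDH1, COL1A1 and DES were named after their values were seen. Samples were not treated as paired by replicate number. Deviations of same-numbered arrays correlated between -0.11 and 0.03 over genes, which with 2 arrays per group cannot exclude a pairing. Alternatives were other background corrections, scalings, filters, probe rules, sample sets and tests, a replicate block and each array left out in turn. The other data of the paper were not analysed here, and a few list genes and probe sequences are not reported here.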

Additional observations from a re-analysis of the deposited data

How the results depend on the processing

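With miR-210-3p against NC, the directions of ISCU, FGFRL1, GPD1L and PTPN1 held in all 22 settings tried, with log2 fold changes of -1.21 to -1.11, -1.70 to -0.87, -1.03 to -0.83 and 0.47 to 0.56. ISCU lost its call in 1 setting, GPD1L in 2, FGFRL1 in 8 and PTPN1 in 10. The cause was not tested. The count of 4 genes called became 1 (ISCU) without a filter on detection, 2 (ISCU and GPD1L) with only the 2 groups compared, 2 (ISCU and GPD1L) with the replicate block, 0 by the methods' t-test after Benjamini-Hochberg adjustment, 5 by its unadjusted p, and 2 (ISCU and FGFRL1) at the paper's threshold. Leaving out 1 array at a time gave 2 to 4, and the lone array of a group was then assumed to vary like the others. The count of 4 probes became 1, 0, 2 and 0 under the first 4 of these settings and 2 to 4 with an array left out.

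With miR-629-3p against NC, the count of 1 (GPD1L) became 2 with normexp, where GPD1L was lower and PTPN1 higher. It became 0 with only 2 groups, 0 with the replicate block and 0 by the adjusted t-test. With miR-874-3p against NC, the count of 0 became 1 (GPD1L) by the unadjusted t-test. Of the 3 genes lower with miR-210-3p than with miR-629-3p, 1 was left by the adjusted t-test, and 2 to 3 were called with an array left out. Against miR-874-3p the count of 3 genes called, all lower, became 5 with normexp (4 lower and 1 higher) and 0 with only 2 groups. It became 0 by the adjusted t-test and 6 by the unadjusted t-test (4 lower and 2 higher). The replicate block took FGFRL1 from that count, leaving 2. The 19 genes called in the lists became 35 with normexp, 2 without a filter, 29 with detection on all 8 arrays and 3 with only 2 groups, and, in alternatives chosen after seeing the data, 7 with the replicate block and 4 to 30 with an array left out.

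Uncalled values changed sign as follows. The mean of all kept probes gave -0.20 for E2F3 and 0.22 for MNT with miR-210-3p against NC, -0.35 for E2F3, 0.11 for MNT and -0.03 for P4HB with miR-629-3p against NC, and 0.10 and 0.17 for MNT with miR-210-3p against miR-629-3p and miR-874-3p. With miR-629-3p against NC, FGFRL1 was at 0.01 both in the authors' values and with outlier spots kept, and P4HB at -0.01 under median centring. Quantile normalization gave -0.02 for P4HB with miR-210-3p against miR-629-3p. With an array left out, the range held both signs for 9 values, none of them called. With miR-210-3p against NC it was -0.02 to 0.45 for ACVR1B, whose NC level is only a bound, and -0.05 to 0.19 for P4HB. With miR-629-3p against NC it was -0.36 to 0.29 for FGFRL1 and -0.10 to 0.15 for P4HB. With miR-874-3p against NC it was -0.02 to 0.10 for ISCU, -0.33 to 0.08 for FGFRL1 and -0.03 to 0.15 for MNT. With miR-210-3p against miR-629-3p it was -0.16 to 0.71 for EFNA3 and -0.04 to 0.02 for MNT. EFNA3 and ACVR1B were each well above background on 6 of the 8 arrays, which limits their values.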
